A study of Mus musculus with 8 samples.

Results

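Genes of mitosis, the kinetochore and the spindle were described in 8 whole mammary tumors of MMTV-PyMT mice, which carry the polyoma middle T oncogene under the MMTV promoter. In 4 tumors, called cKO, the mice also carried the MMTV-Cre transgene and floxed Mmp14 alleles, Mmp14(f/f). The other 4, called WT as in the labels, came from littermates with the same PyMT transgene and the same Mmp14(f/f) alleles but no Cre. All mice were congenic FVB/NJ and 3 to 4 months old, and the tumors, from inguinal and thoracic glands, were used whole. The MMTV promoter is active mainly in mammary epithelium, so the oncogene and Cre act there, while a whole tumor also holds stroma. The groups differ in the Cre transgene as well as in the state of Mmp14, and these differences cannot be told apart. The members are 57 genes picked by name for their role in cell division, and 56 of them were measured, each on 1 array row with 1 gene symbol, of 22180 genes on 23521 such rows. Ncapg, a condensin subunit, was read only by a row shared with Lcorl and was left out.

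Each tumor gave 1 Affymetrix array, and values are the deposited log2 signals. The level of 1 gene is not set against that of another, since probes differ. Array medians lay between 3.64 and 3.71. Mammary epithelial markers averaged 9.13 to 9.53 in cKO tumors and 9.27 to 9.80 in WT tumors, with Epcam between 10.45 and 10.60 in cKO tumors and between 10.51 and 10.64 in WT tumors, high in all 8 tumors. Mmp14 itself, which encodes a membrane-anchored matrix protease, had signals of 7.98, 7.74, 7.44 and 7.72 in cKO tumors 1 to 4, against 8.86, 9.12, 9.31 and 9.17 in WT tumors 1 to 4. It was lower in all 4 cKO tumors by 1.40 (difference −1.40, SE 0.13, limma adjusted p = 0.0444, exact two-sided permutation p = 0.0286, the smallest that 4 against 4 allows). Its adjusted p was 0.0582 without cKO 2, 0.211 without cKO 4, and 0.0954, 0.135, 0.137 and 0.152 without WT 1, WT 2, WT 3 and WT 4, with differences between −1.48 and −1.33, so the call rests on all of these tumors. The labels call the tumors of a group biological replicates and do not say whether each came from another mouse.

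When a cell divides, condensin packs the chromosomes, the cyclin-dependent kinase Cdk1 starts mitosis, and kinetochores built on centromeres tie each chromosome to spindle microtubules. A checkpoint holds the anaphase-promoting complex, a ubiquitin ligase, inactive until every kinetochore is attached, and kinesins and cytokinesis proteins then part the daughter cells. Transcripts of most of these proteins are made mainly in the later part of the cell cycle, so their level in bulk tissue depends in part on the share of dividing cells. In mammary tumors the Ki-67 protein, product of Mki67, is a common measure of that share.

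All 56 measured members had a higher mean signal in cKO tumors than in WT tumors, with differences between 0.17 and 0.91 and a median of 0.66, a signal ratio of 1.58. Of all tested rows 56.5% had a positive difference, and the median over them was 0.02. No member passed the threshold of an adjusted p of 0.05 (limma, Benjamini-Hochberg over all 23521 rows), which 0.0085% of rows passed in either direction and 0.00425% as higher, and the members' adjusted p ran from 0.0776 to 0.763. At an unadjusted limma p below 0.05, 51 of 56 members, or 91.1%, were higher, where 5.54% of all rows were, and no member was lower, where 4.14% of all rows were. In 41 members all 4 cKO tumors lay above all 4 WT tumors (called separate groups from here on), or 73.2%, where 3.68% of all rows did so, and in no member did all cKO tumors lie below, where 1.73% of rows did. Among rows with a mean signal of at least 5, as 52 of the members have, 8.11% were higher at that p, 4.96% had all cKO tumors above, and 51.6% had a positive difference. A difference of at least 0.5 was seen in 44 members, in 1.85% of all rows and in 2.95% of those with a mean of at least 5. Members of 1 pathway move together and are not independent, and the list was chosen with earlier results of these data known. These counts therefore describe the list and were not tested. More dividing cells, more RNA per dividing cell and a different mix of cell types cannot be told apart in whole tumors.

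**Figure D1:**
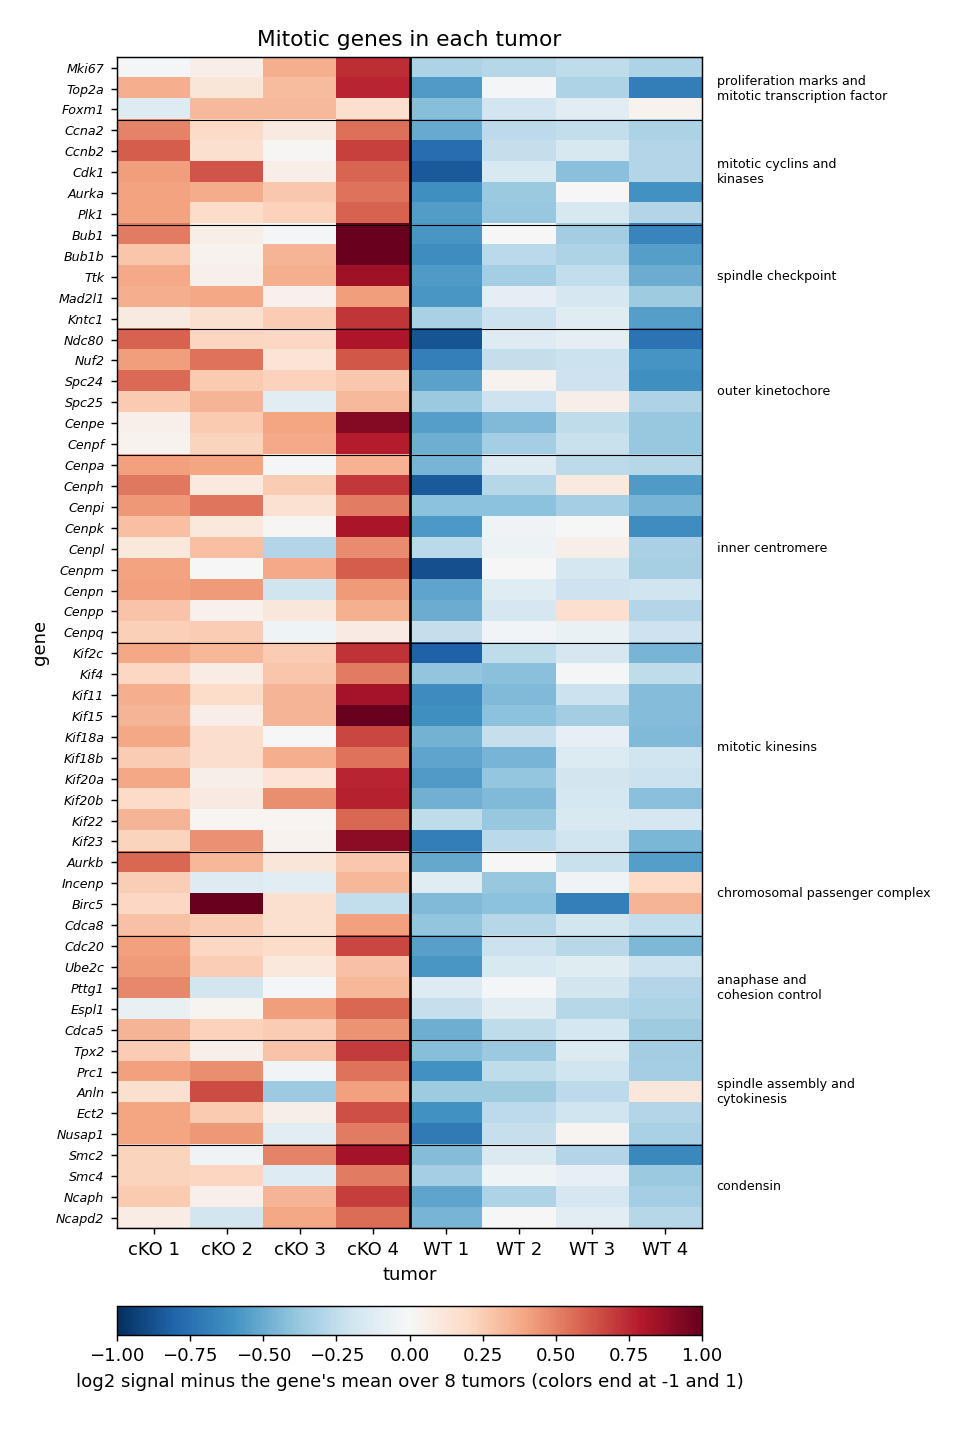
Each row is a mitotic gene, grouped by role, and each column a tumor, with the 4 cKO tumors on the left and the 4 WT tumors on the right. Color gives the log2 signal minus the gene's mean over the 8 tumors. Red fills most of the cKO side and blue most of the WT side, cKO 4 is the reddest column and WT 1 the bluest, and Birc5, Incenp and Anln break the pattern in WT 4.

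The tumors were not alike within their groups. Each member was centered on its mean over the 8 tumors, and the average of these centered signals, the member score, was 0.31, 0.22, 0.16 and 0.58 in cKO tumors 1 to 4, against −0.51, −0.23, −0.17 and −0.36 in WT tumors 1 to 4. No cKO tumor reached down to the WT range, and the nearest tumors of the groups were cKO 3 and WT 3. Of the 56 members, 44 had their highest signal of all 8 tumors in cKO 4, 6 in cKO 2, 5 in cKO 1, 1 in cKO 3 and none in a WT tumor. WT 1 was the lowest of the 8 in 39 members, WT 4 in 12, WT 2 in 3, and WT 3 and cKO 3 in 1 each. The spread within groups was larger in cKO for 39 members, with a median SD of 0.27 in cKO and 0.19 in WT. With cKO 4 left out the median difference was 0.58, with WT 1 left out 0.59, and with both left out 0.49, and all 56 members stayed higher in each case. The labels number the arrays, and each set of 4 consecutive numbers holds 2 tumors of either group. In the set numbered 1 to 4 the members' median difference was 0.66, in the set numbered 5 to 8 it was 0.65, and all 56 were higher in both. Single members were less even, with Incenp at 0.31 and 0.03 in these sets, Birc5 at 1.06 and 0.13, Anln at 0.76 and 0.10, Espl1 at 0.15 and 0.80 and Mki67 at 0.32 and 0.83.

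The promoters of the members were read for the short motifs that mitotic genes are known for. The cell cycle genes homology region, TTTGAA or TTCGAA, is bound by the MuvB complexes that repress these genes in resting cells and, with B-Myb and Foxm1, switch them on before mitosis, and CCAAT is bound by NF-Y. The RefSeq promoter table (GRCm38.p6, 250 bases before to 50 after each start) held 53 promoters of 49 members. Both strands were searched, and motifs may overlap. TTTGAA or TTCGAA stood in 71.7% of member promoters, 19.2% of all 32851 promoters and 17.6% of those of protein-coding genes. CCAAT stood at least 2 times in 45.3% of member promoters and 11.7% of all. Both conditions held in 41.5% of member promoters, 2.31% of all and 2.45% of those of protein-coding genes. The E2F forms TTTGGCGC, TTTCGCGC, TTTCCCGC and TTTGGCGG, taken as 1 class, stood in 13.2% of member promoters and 2.37% of all. Median GC content was 59.0% in member promoters and 52.7% in all. The 6 promoters below, from 5 of the 10 roles, are those with the smallest limma p among members with both motifs. They are shown as examples of members with both motifs and not as a pattern of all members, and the capitals mark the homology region, CCAAT and E2F forms on either strand, so that CCAAT can read as its reverse complement ATTGG.
Cdca8, chr4:124936868-124937167, minus strand: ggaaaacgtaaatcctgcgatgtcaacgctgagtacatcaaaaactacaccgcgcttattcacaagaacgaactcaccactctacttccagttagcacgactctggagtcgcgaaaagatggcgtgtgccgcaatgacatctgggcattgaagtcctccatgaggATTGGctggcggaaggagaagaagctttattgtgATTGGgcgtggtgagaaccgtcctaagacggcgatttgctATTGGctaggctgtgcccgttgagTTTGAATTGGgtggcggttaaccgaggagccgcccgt
Cdc20, chr4:118437294-118437593, minus strand: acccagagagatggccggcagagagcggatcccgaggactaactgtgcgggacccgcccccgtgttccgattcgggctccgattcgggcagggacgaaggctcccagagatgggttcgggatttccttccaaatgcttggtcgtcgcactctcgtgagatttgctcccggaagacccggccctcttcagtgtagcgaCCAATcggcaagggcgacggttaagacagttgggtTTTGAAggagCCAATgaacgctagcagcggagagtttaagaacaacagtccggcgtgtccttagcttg
Aurka, chr2:172370521-172370820, minus strand: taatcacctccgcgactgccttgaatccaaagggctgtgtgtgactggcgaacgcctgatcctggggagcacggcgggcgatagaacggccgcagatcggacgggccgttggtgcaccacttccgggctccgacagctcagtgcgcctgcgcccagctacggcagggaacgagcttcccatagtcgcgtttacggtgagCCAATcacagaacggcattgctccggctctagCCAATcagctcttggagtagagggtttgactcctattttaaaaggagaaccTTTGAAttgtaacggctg
Kif18b, chr11:102925075-102925374, minus strand: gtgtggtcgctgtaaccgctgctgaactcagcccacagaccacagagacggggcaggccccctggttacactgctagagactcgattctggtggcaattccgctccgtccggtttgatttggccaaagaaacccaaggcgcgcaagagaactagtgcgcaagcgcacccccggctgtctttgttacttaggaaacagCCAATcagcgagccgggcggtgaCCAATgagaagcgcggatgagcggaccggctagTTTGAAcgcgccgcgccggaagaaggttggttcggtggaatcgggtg
Ttk, chr9:83834439-83834738, plus strand: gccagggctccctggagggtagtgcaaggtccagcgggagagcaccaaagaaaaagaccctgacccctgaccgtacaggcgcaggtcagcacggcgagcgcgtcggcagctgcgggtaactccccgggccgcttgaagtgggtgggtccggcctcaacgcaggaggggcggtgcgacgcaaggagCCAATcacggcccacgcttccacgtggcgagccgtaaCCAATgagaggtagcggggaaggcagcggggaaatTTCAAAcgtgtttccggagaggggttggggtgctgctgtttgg
Cdk1, chr10:69352863-69353162, minus strand: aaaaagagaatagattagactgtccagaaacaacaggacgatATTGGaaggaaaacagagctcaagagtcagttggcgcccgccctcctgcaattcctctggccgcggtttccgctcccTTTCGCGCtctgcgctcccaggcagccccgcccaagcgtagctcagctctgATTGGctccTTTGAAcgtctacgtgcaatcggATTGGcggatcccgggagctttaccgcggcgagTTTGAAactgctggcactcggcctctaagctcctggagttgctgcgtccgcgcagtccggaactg
In Aurka, Kif18b and Ttk a pair of CCAAT boxes stands upstream of a single homology region near the start. Cdk1 has 2 homology regions and 3 CCAAT boxes with an E2F form between the first pair of boxes, and in Cdca8 a CCAAT box overlaps the homology region. The 35 measured members with TTTGAA or TTCGAA in a promoter had a median difference of 0.70 (range 0.29 to 0.91). The 13 without it had one of 0.62 (range 0.27 to 0.86), and the difference between these sets was not tested. These matches are letters in a window and do not show binding.

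Among the marks of proliferation, Mki67 and the DNA-untangling enzyme Top2a were separate between the groups and the transcription factor Foxm1 was not. Counts of separate members by role, here and below, stand beside 3.68% of all rows that were separate in this direction. Mki67 had signals of 8.98, 9.06, 9.36 and 9.74 in cKO tumors 1 to 4, against 8.69, 8.72, 8.75 and 8.69 in WT tumors 1 to 4, a difference of 0.58 (SE 0.15, limma adjusted p = 0.298). The WT tumors were nearly equal while the cKO tumors were spread upward, with an SD of 0.34 in cKO and 0.03 in WT (n = 4 each). Top2a had 8.48, 8.24, 8.43 and 8.88 in cKO tumors against 7.55, 8.10, 7.81 and 7.42 in WT tumors, a difference of 0.79 (SE 0.18, adjusted p = 0.209). Foxm1, which drives many of the other members in G2, had 5.47, 5.92, 5.93 and 5.77 in cKO tumors against 5.18, 5.41, 5.49 and 5.64 in WT tumors. Its difference of 0.34 (95% interval 0.04 to 0.65, adjusted p = 0.468) was below the members' median, and cKO 1 lay under WT 3 and WT 4.

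All 5 mitotic cyclins and kinases were separate between the groups. Plk1, the polo kinase of centrosomes and kinetochores, had 8.14, 7.93, 7.97 and 8.33 in cKO tumors 1 to 4, against 7.18, 7.36, 7.58 and 7.45 in WT tumors 1 to 4, a difference of 0.70 (SE 0.12, adjusted p = 0.142). Cdk1 had 7.08, 7.29, 6.73 and 7.25 in cKO tumors against 5.83, 6.52, 6.24 and 6.37 in WT tumors, a difference of 0.85 (SE 0.17, adjusted p = 0.188). Ccnb2, a B-type cyclin that activates Cdk1, had 8.50, 8.05, 7.90 and 8.57 in cKO tumors against 7.12, 7.65, 7.73 and 7.60 in WT tumors, a difference of 0.73 (SE 0.19, adjusted p = 0.264). WT 1 was the lowest tumor for these 3 genes. Cyclin A2 (Ccna2) differed by 0.67 and the spindle kinase Aurka by 0.79, and Aurka varied less in cKO than in WT (SD 0.11 in cKO and 0.29 in WT, n = 4 each).

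The spindle checkpoint genes had a median difference of 0.80, and 4 of the 5 were separate. Without cKO 4 the median was 0.59, against 0.66 for the outer kinetochore and 0.61 for the kinesins, so the roles have no stable order. Ttk, the Mps1 kinase that starts checkpoint signalling, had 6.93, 6.60, 6.91 and 7.40 in cKO tumors 1 to 4, against 5.98, 6.21, 6.30 and 6.06 in WT tumors 1 to 4, a difference of 0.82 (SE 0.16, adjusted p = 0.164). The kinase Bub1 had 6.43, 5.97, 5.90 and 6.93 in cKO tumors against 5.33, 5.91, 5.56 and 5.25 in WT tumors. Its difference was 0.80 (SE 0.24, adjusted p = 0.347), with cKO 3 just below WT 2, and it was 0.59 without cKO 4. Bub1b, which encodes the checkpoint effector BubR1, differed by 0.87, Mad2l1, which binds and blocks Cdc20, by 0.60, and Kntc1, the Rod protein that brings Mad proteins to kinetochores, by 0.61.

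At the outer kinetochore, the Ndc80 complex that grips microtubules was read through its 4 subunits, and 3 of them were separate. Nuf2 had 7.74, 7.86, 7.46 and 7.94 in cKO tumors 1 to 4, against 6.63, 7.08, 7.11 and 6.73 in WT tumors 1 to 4, a difference of 0.86 (SE 0.15, adjusted p = 0.142). Ndc80 had the largest difference of all members, 0.91 (SE 0.21), and Spc24 differed by 0.66. Spc25, the partner of Spc24, had 6.87, 6.95, 6.51 and 6.94 in cKO tumors against 6.24, 6.40, 6.67 and 6.30 in WT tumors, a difference of 0.41 (SE 0.13, adjusted p = 0.378) with cKO 3 inside the WT range. The subunits of 1 complex thus had differences from 0.41 to 0.91, and the difference between subunits was not tested. The motor Cenpe and the large corona protein Cenpf differed by 0.81 and 0.71, both separate and both highest in cKO 4.

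The centromeric histone and inner kinetochore genes, marked inner centromere in the figures, had a median difference of 0.57, and 4 of 9 were separate. Cenpi, a subunit of the constitutive centromere network, had the smallest p of all members. Its signals were 6.45, 6.56, 6.18 and 6.53 in cKO tumors 1 to 4, against 5.61, 5.61, 5.69 and 5.56 in WT tumors 1 to 4, a difference of 0.81 (95% interval 0.59 to 1.04, adjusted p = 0.0776). The WT tumors were nearly equal, and without cKO 3 the difference was 0.90 with an adjusted p of 0.0379, while its adjusted p was 0.406 without WT 1. Its network partners Cenph and Cenpk differed by 0.79 and 0.62, and Cenpm by 0.70. Cenpl had 4.41, 4.61, 4.01 and 4.78 in cKO tumors against 4.04, 4.26, 4.37 and 3.98 in WT tumors, a difference of 0.29 (95% interval −0.08 to 0.67, adjusted p = 0.612) that was 0.18 without cKO 4. Its partner Cenpn, which reads the centromeric nucleosome, differed by 0.53 with cKO 3 at 6.66, within the WT range of 6.34 to 6.74. Cenpp and Cenpq, of the subcomplex that recruits Plk1, differed by 0.39 and 0.27, and the centromeric histone Cenpa by 0.57. Cenpk and Cenpl were among the 4 members with a mean signal below 5, with Pttg1 and Espl1, and differences of such dim rows can understate the change in RNA.

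**Figure D2:**
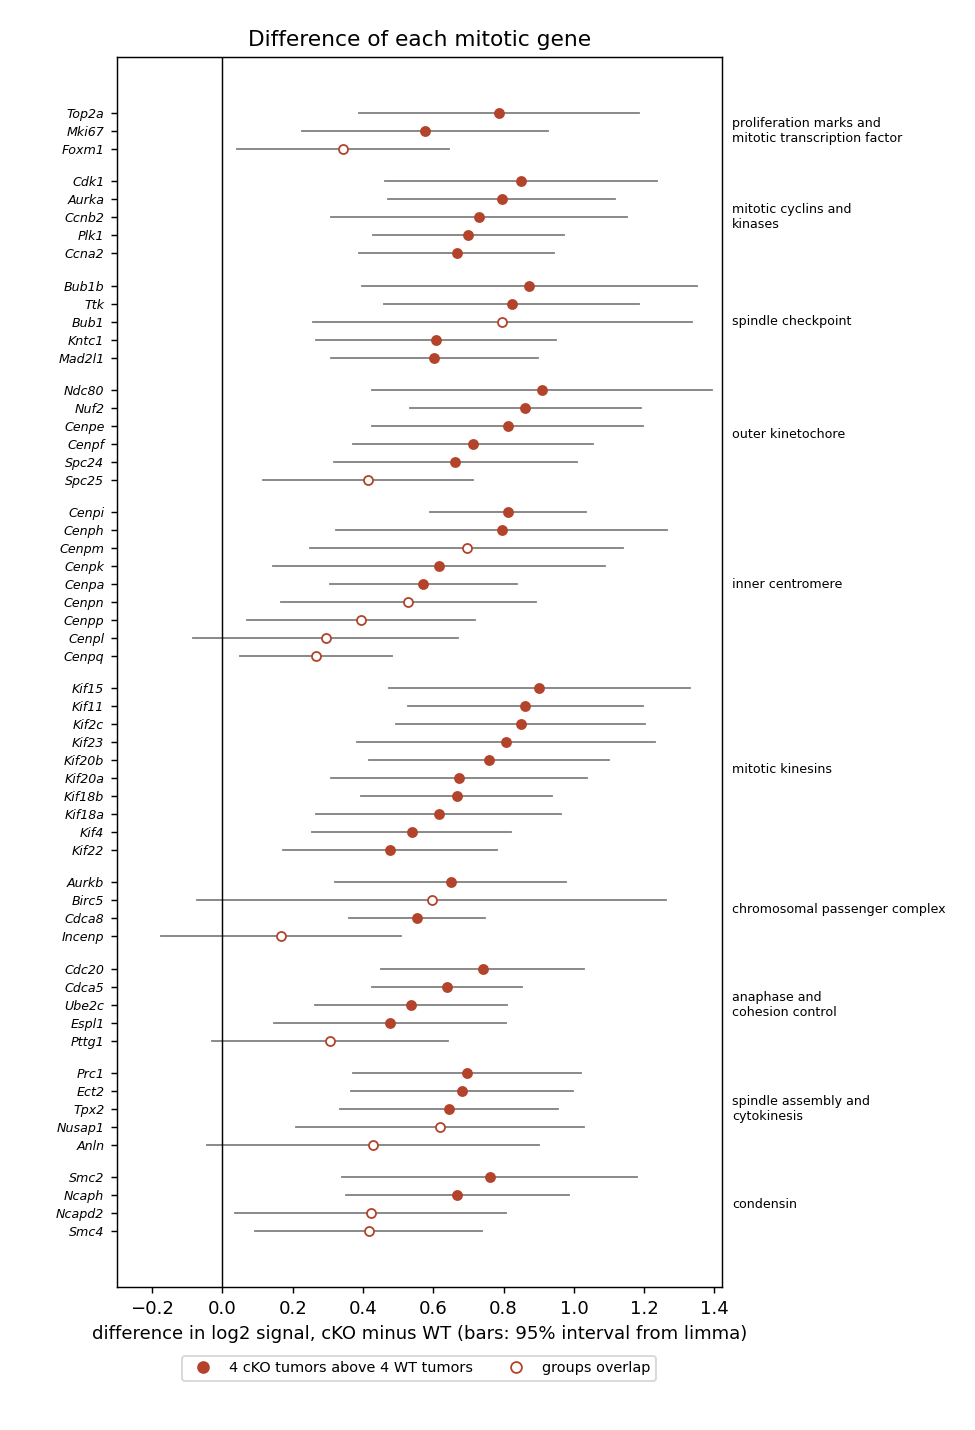
Each point is the difference in log2 signal, cKO minus WT, of 1 mitotic gene, with its 95% interval from limma, sorted within roles. Filled points mark the 41 genes whose 4 cKO tumors all lay above the 4 WT tumors, open points the 15 whose groups overlap. All points lie right of 0, between 0.17 and 0.91, and the intervals of Cenpl, Incenp, Birc5, Pttg1 and Anln reach below 0.

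All 10 mitotic kinesins were separate between the groups, where 3.68% of all rows were, with a median difference of 0.72. Kif11, the Eg5 motor that pushes spindle poles apart, had 8.19, 8.01, 8.17 and 8.66 in cKO tumors 1 to 4, against 7.19, 7.39, 7.61 and 7.39 in WT tumors 1 to 4, a difference of 0.86 (SE 0.15, adjusted p = 0.142). Kif22, a chromosome arm motor, had the smallest difference of the 10. It had 6.68, 6.36, 6.35 and 6.91 in cKO tumors against 6.09, 5.96, 6.18 and 6.17 in WT tumors, a difference of 0.48 (SE 0.13, adjusted p = 0.315). Kif15, which can act beside Kif11 in the spindle, differed by 0.90, and the microtubule-shortening Kif2c by 0.85. The midzone and cytokinesis motors Kif4, Kif20a, Kif20b and Kif23 differed by 0.54, 0.67, 0.76 and 0.81, and Kif18a and Kif18b, which limit microtubule length, by 0.62 and 0.67.

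The chromosomal passenger complex, in which the kinase Aurkb is held by Incenp, Birc5 (survivin) and Cdca8 (borealin), was split. Cdca8 had 6.39, 6.36, 6.26 and 6.51 in cKO tumors 1 to 4, against 5.71, 5.82, 5.92 and 5.85 in WT tumors 1 to 4, a difference of 0.55 (SE 0.09, adjusted p = 0.142), and Aurkb differed by 0.65 with separate groups. The scaffold Incenp had 7.37, 6.995, 7.02 and 7.46 in cKO tumors against 7.004, 6.75, 7.09 and 7.32 in WT tumors. Its difference of 0.17 (95% interval −0.17 to 0.51, adjusted p = 0.763) was the smallest of all members, and it was 0.07 without WT 2. Birc5, singled out after its values were seen, had 6.46, 7.32, 6.41 and 5.999 in cKO tumors against 5.81, 5.84, 5.56 and 6.59 in WT tumors, a difference of 0.60 (SE 0.30, adjusted p = 0.563) that was 0.34 without cKO 2. In Birc5 the tumor cKO 4, the highest for most members, was the lowest of its group, and WT 4 was above 3 of the 4 cKO tumors. Of the 56 members, 4 had their highest WT signal in WT 4, namely Birc5, Incenp, Anln and Foxm1. The score of mammary epithelial markers was also highest in WT 4, at 0.41, and within cKO in cKO 2, at 0.13, and its part in these values was not tested.

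**Figure D3:**
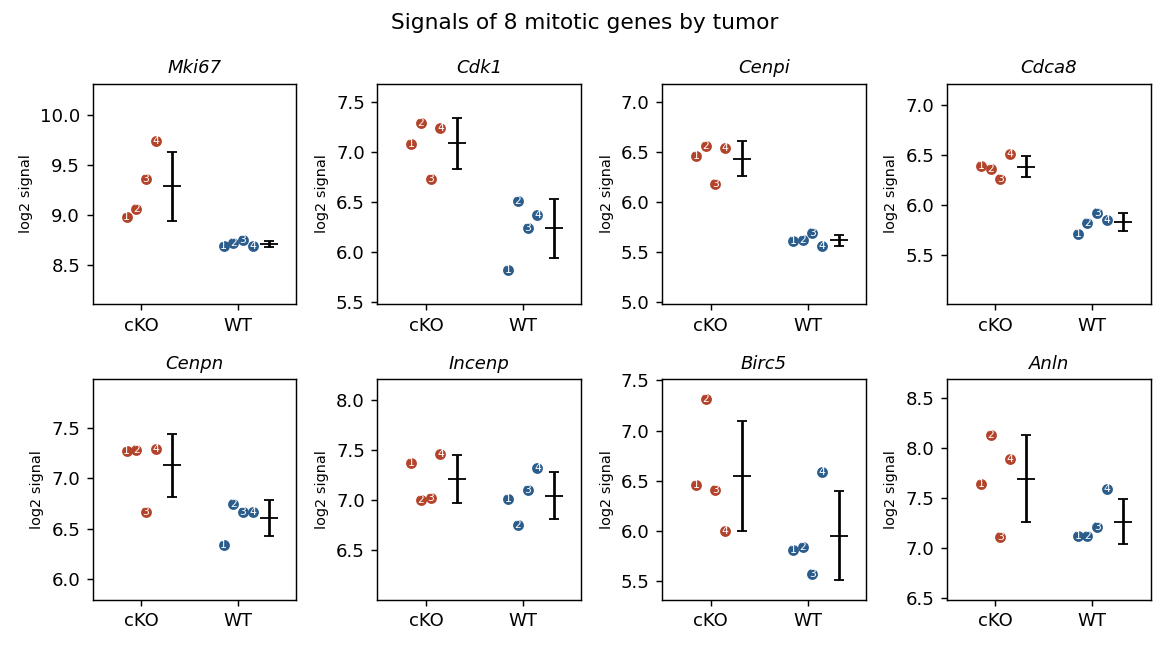
Log2 signals of 8 mitotic genes by tumor, cKO left and WT right in each panel, with the replicate number in each point and the mean and SD (n = 4) as a bar. All panels span the same height on the log2 scale. Mki67, Cdk1, Cenpi and Cdca8 are separate between the groups, Cenpn overlaps through cKO 3, and Incenp, Birc5 and Anln overlap with WT 4 as the highest WT tumor.

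Of the genes that control anaphase and cohesion, 4 of 5 were separate. Cdca5 (sororin), which keeps sister chromatids joined, had 6.10, 5.99, 6.01 and 6.21 in cKO tumors 1 to 4, against 5.27, 5.51, 5.58 and 5.40 in WT tumors 1 to 4, a difference of 0.64 (SE 0.09, adjusted p = 0.142). Both groups were tight, and the lowest cKO tumor stood well clear of the highest WT tumor. Pttg1 (securin), which inhibits separase, had 4.71, 4.04, 4.22 and 4.56 in cKO tumors against 4.10, 4.22, 4.05 and 3.94 in WT tumors, a difference of 0.31 (95% interval −0.03 to 0.64, adjusted p = 0.553) that was 0.20 without cKO 1. Separase itself, Espl1, differed by 0.48. Cdc20 and Ube2c, which are the activator and the ubiquitin-conjugating enzyme of the anaphase-promoting complex, differed by 0.74 and 0.54.

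Of the 5 spindle assembly and cytokinesis genes, 3 were separate. Ect2, which activates RhoA at the division plane, had 8.97, 8.83, 8.63 and 9.21 in cKO tumors 1 to 4, against 7.96, 8.31, 8.37 and 8.28 in WT tumors 1 to 4, a difference of 0.68 (SE 0.14, adjusted p = 0.190). Anln (anillin), the scaffold of the contractile ring, had 7.64, 8.13, 7.12 and 7.89 in cKO tumors against 7.13, 7.13, 7.21 and 7.60 in WT tumors. The Anln difference of 0.43 (95% interval −0.05 to 0.90, adjusted p = 0.556) was 0.28 without cKO 2, and cKO 3 was the lowest of the 8 tumors. Tpx2, which activates Aurka on the spindle, differed by 0.64, the midzone bundler Prc1 by 0.70 and the microtubule binder Nusap1 by 0.62.

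The condensin genes had a median difference of 0.54. Ncaph, specific to condensin I, had 7.22, 7.01, 7.30 and 7.65 in cKO tumors 1 to 4, against 6.43, 6.65, 6.79 and 6.62 in WT tumors 1 to 4, a difference of 0.67 (SE 0.14, adjusted p = 0.196). Ncapd2, of the same complex, had 6.67, 6.41, 6.98 and 7.15 in cKO tumors against 6.13, 6.60, 6.49 and 6.31 in WT tumors, a difference of 0.42 (SE 0.17, adjusted p = 0.485) with overlap. The core ATPases Smc2 and Smc4 differed by 0.76 and 0.42, the first with separate groups.

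Other genes of cell division, listed by role, were then set beside the members. Of 83 measured, 78 were higher in cKO tumors, with a median difference of 0.23, where 56.5% of all tested rows were higher. At an unadjusted limma p below 0.05, 39 (47.0%) were higher, where 5.54% of all rows were. None passed the adjusted threshold in either direction. The medians differed between the lists, but the ranges of the lists overlapped, and differences between lists were not tested. Among 16 other spindle and cytokinesis genes, 12 were higher at that unadjusted p (median 0.54), with the spindle protein Tacc3 at 0.57 and Ckap2l at 0.71, while Kif3a, a motor of cilia, stood at −0.0047. Of 15 other kinetochore and checkpoint genes 9 were (median 0.34), the smallest p being those of the scaffold Knl1 at 0.84 and the microtubule coupler Ska1 at 0.78, with the kinetochore protein Zwint at −0.06. Of 14 other regulators of mitotic entry and exit 8 were (median 0.39), the smallest p being those of the kinase Nek2 at 0.49 and the phosphatase Cdc25c at 0.64, with the MuvB subunit Lin52 at −0.02. Of 8 other centromere genes 4 were (median 0.25), the smallest p being those of Mis18a, which helps load Cenpa, at 0.39 and Cenpt at 0.30, with Cenpx at 0.0026. Condensin II had 2 of 3 (median 0.23), with Ncapg2 at 0.53, Ncapd3 at 0.23 and Ncaph2 at 0.10.

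The core machines that the members act on had smaller median differences. All 15 subunits and activators listed for the anaphase-promoting complex were higher, by a median of only 0.13. At an unadjusted limma p below 0.05, 2 (13.3%) were higher, where 5.54% of all rows were. They were Cdc23 at 0.25 and Anapc13 at 0.28, and Cdc27 stood at 0.02. Cohesin and its loaders and regulators had a median of 0.09, and 2 of 12 (16.7%) were higher at that p. They were the acetyltransferase Esco2 at 0.76 and the subunit Stag1 at 0.25, and the release factor Wapl stood at 0.02. So within anaphase control, Cdc20 and Ube2c stood at 0.74 and 0.54 while the ligase they serve had a median of 0.13. The anaphase-promoting complex list had 17 promoters, from 14 of its 15 genes. TTTGAA or TTCGAA stood in 11.8% of them, against 71.7% for the members, and both motifs together in none of the 17. The cohesin list had only 8 promoters, from 7 of its 12 genes. Of these 8 promoters 25% held TTTGAA or TTCGAA and 12.5% held both motifs. An E2F form stood in 37.5% of the 8, against 13.2% for the members. A link between these motifs and the differences was not tested. DNA replication genes, the list most like the members, had a median of 0.53, with 29 of 29 higher. Of these, 25 (86.2%) were separate between the groups, where 3.68% of all rows were. Shares as high as the members' were thus seen in that list too.

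**Figure D4:**
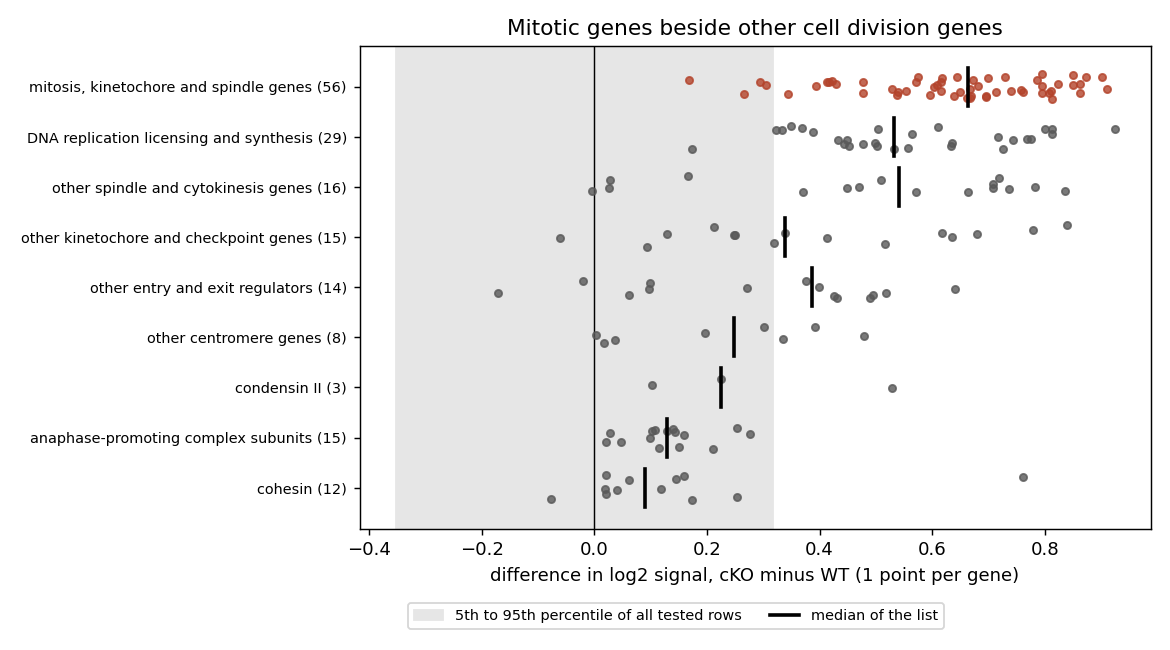
Each point is a gene's difference in log2 signal, cKO minus WT, by list, with the number of genes in brackets, the list's median as a black bar and the span from the 5th to the 95th percentile of all tested rows in gray. The members (red) have a median of 0.66 and DNA replication one of 0.53, while the anaphase-promoting complex at 0.13 and cohesin at 0.09 lie within the gray span except for Esco2.

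Marker genes of other cells that a whole tumor can hold were read beside the member score. Of 10 macrophage markers 8 were higher in cKO, with a median of 0.40. At an unadjusted limma p below 0.05, 7 of the 10 were higher, where 5.54% of all rows were. The mean level of these markers ran from 6.39 to 6.83 in cKO and from 5.97 to 6.35 in WT. Their score, like that of the members, was highest in cKO 4 (0.45) and did not overlap between the groups. All 10 fibroblast markers were lower in cKO (median −0.98), 5 at an unadjusted limma p below 0.05, where 4.14% of all rows were lower. Fibroblast marker levels averaged 5.48 to 7.86 in cKO and 7.26 to 7.86 in WT. The fibroblast score was −1.72 in cKO 3, the cKO tumor with the lowest member score, and 0.66 in cKO 4, the one with the highest. All 8 endothelial markers were lower (median −0.28), at levels of 5.57 to 6.32 in cKO and 5.98 to 6.40 in WT. Mammary epithelial markers had a median of −0.12, with 8 of 10 lower, 1 of them at an unadjusted limma p below 0.05. That marker was Krt19, with a difference of −1.15 and signals of 6.21 to 7.96 in cKO and 7.65 to 8.96 in WT. T and B lymphocyte markers averaged 3.46 to 3.68 in cKO and 3.35 to 3.70 in WT, about the array medians, with 5 of 9 higher. Adipocyte markers (3 of 6 higher) had levels of 4.39 to 5.12 in cKO and 4.72 to 4.94 in WT, and skeletal muscle markers (1 of 6 higher) 3.63 to 4.56 in cKO and 3.57 to 5.67 in WT. No marker passed the adjusted threshold. The part of these cell types in the members' differences was not tested.

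**Figure D5:**
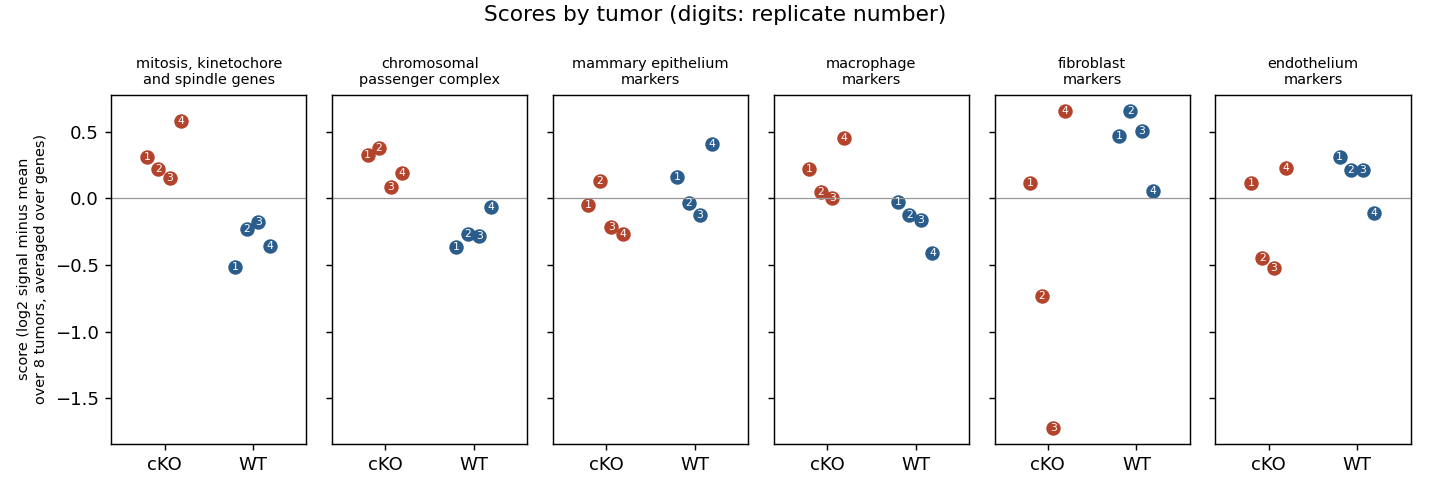
Scores by tumor, cKO left and WT right in each panel, for the mitotic genes, their chromosomal passenger complex genes and markers of 4 cell types, with the replicate number in each point. The member score runs from 0.16 to 0.58 in cKO and from −0.51 to −0.17 in WT, the macrophage score separates the groups by a small gap, and the fibroblast score spans −1.72 to 0.66 in cKO.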

How the data were processed

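RNA of 8 tumors (400 ng of total RNA each) was labelled with the WT Plus kit, as the labels' protocols say. The deposited log2 signals were made by the authors with RMA (background correction, quantile normalization and probe summary), which the submitters' processing notes name beside limma, without versions. No detection calls were used, and the number of arrays limits precision. Rows with 1 symbol in the platform annotation were kept, and 23328 took their symbol by gene identifier from RefSeq (GRCm38.p6). A gene with several rows was read by the row with the highest mean. The test was limma 3.58.1 in R 4.3.3 (lmFit, eBayes, cKO minus WT, no covariate, two-sided), with Benjamini-Hochberg adjustment over the 23521 rows. It was tried on simulated data with changes larger than the difference of any member. Recovery of changes of the members' size was therefore not examined. The members, lists, motifs and naming rule were chosen with earlier results of these data known.

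Values in every tumor are given for the members with the smallest and the largest p of each role, for Mki67, Top2a, Cdk1 and Plk1, and for Birc5. From each other list the 2 genes with the smallest p and the 1 with the largest are named. Alternatives were 2 rescalings, a filter on dim rows, another variance model, the mean over rows of a gene, 2 blocks and each tumor left out.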

Additional observations from a re-analysis of the deposited data

Results flagged for a closer look

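In 5 members 1 cKO tumor lay far from the other 3, by Dixon's gap ratio at the 95% level, among 136 groups of 4 checked, of which chance flags about 1 in 20. In 4 of them it was cKO 3 on the low side: Mad2l1 at 7.15 with the others from 7.47 to 7.52, Spc25 at 6.51 with the others from 6.87 to 6.95, Cenpa at 6.32 with the others from 6.68 to 6.74, and Cenpn at 6.66 with the others from 7.28 to 7.29. In Spc24 it was cKO 1 on the high side, at 6.52 with the others from 6.18 to 6.22.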

How the results depend on the processing

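All 56 measured members stayed higher in cKO, or 52 of 52 with the filter on rows with a mean of at least 5, under every alternative, and the median difference lay between 0.66 and 0.68 except when tumors were left out. Leaving out 1 tumor gave medians from 0.58 to 0.72, between 0 and 1 members past the threshold (Cenpi without cKO 3), between 0 and 3 rows past it over all genes, and Mmp14 differences from −1.48 to −1.30. Leaving out cKO 4 and WT 1 together, chosen after seeing the data, gave a median of 0.49 and no row past the threshold. Mmp14 stood at −1.48 in that fit, no longer past the threshold. Tumors of the same replicate number correlated in their deviations from the group means with r of −0.02, −0.20, 0.29 and −0.24 for numbers 1 to 4. These values gave no steady pairing by number, but they cannot show that the tumors were unpaired. With the replicate block, Mmp14 stood at −1.40 with an adjusted p of 0.353, and 0 rows passed. With the array number block Mmp14 had an adjusted p of 0.0708 at −1.40, and 1 row passed. Fewer tumors or residual degrees of freedom remain in these fits, and the blocks changed no other call. In a window of 100 bases before to 50 after the start, 60.4% of member promoters held CCAAT (23.4% of all promoters), 30.2% held it at least 2 times (4.79% of all) and 24.5% held both motifs (0.42% of all). Single tumors moved the differences of 5 members by over 1.5 times: Cenpl, Incenp, Birc5, Pttg1 and Anln. Arrays carry no read depth, and signal over background was not analysed here.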
